A study of Mus musculus with 6 samples.

Results

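The 37 genes described here carry fatty acids into cells and break them down by beta-oxidation, and their RNA was measured in 6 mouse heart samples at day 4. They were chosen by gene symbol, not by their values, and all 37 were found among the 54532 rows of the deposited table. The samples came from wild-type ICR mice, an outbred stock, in a series on offspring of diabetic pregnancy. In the control group (n = 3) the pregnant mothers received citric acid by intraperitoneal injection, and in the STZ group (n = 3) they received STZ, read here as streptozotocin, a toxin of the insulin-producing beta cell. Day 4 is the age that the sample titles give. Separate mothers, pooling of hearts and sex are not stated in the labels, so the tests measure the spread between these 6 samples.

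The heart draws most of its energy from fatty acids once it is mature, and in rodents it moves from glucose and lactate toward fatty acids in the days after birth. Lipoprotein lipase frees fatty acids from circulating triglyceride, membrane transporters and a binding protein carry them into the cardiomyocyte, and acyl-CoA synthetases activate them. The carnitine shuttle then moves the acyl groups into the mitochondrion, where dehydrogenation, hydration, another oxidation and thiolysis shorten the chain and release acetyl-CoA, while peroxisomes handle very long and branched chains.

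Values are FPKM, reads per kilobase of gene relative to a scale the authors set for each library. Comparisons of levels between genes rest on the deposited gene lengths. For Eci1 that length is 1091 bases, against 2127 exon bases in GENCODE M21. The libraries held 16707268 to 18082599 whole reads, recovered from the values. Control 2 stood apart from the other 5 libraries across the table. The summed level of 5 atrial cardiomyocyte markers was 6102 FPKM in control 2 and 32.7 to 116 FPKM in the other 5 libraries. Among them, Myl7 was at 3930 FPKM in control 2 and at 2.92 to 18.3 FPKM in the other 5. How much atrial tissue each sample held was not tested. Of the 6 adipocyte markers, Ucp1, which marks brown fat, was at 213 FPKM in control 2 and listed at 0 in the other 5, and Adipoq was at 20.4 FPKM against 0. Summed erythroid markers were at 14445 FPKM in control 2 and 2227 to 4913 FPKM elsewhere, and fibroblast markers at 1558 FPKM against 766 to 965 FPKM. The 10 cardiomyocyte markers, all present in every library as a heart sample should show, summed to 3438 FPKM in control 2 and to 5491 to 6193 FPKM elsewhere. Of the 5 hepatocyte markers, Serpina1a and Cyp7a1 were listed at 0 in all 6 libraries, and Ttr was at 0.323 to 0.921 FPKM, highest in control 2. All 5 summed to 0.996 FPKM in control 2 and 0.341 to 0.534 FPKM in the other 5 libraries. The direction and size of many values below turned on this library, so fold changes are given with and without it where that moves them, and what the atrial, adipocyte, erythroid and fibroblast signal contributed to it was not tested.

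Of the 37 members, 35 reached at least 1 FPKM in at least 3 libraries and were tested. Cpt1b and Acsl6 were too low. No member passed the threshold in either direction (limma on log2(FPKM + 1), Benjamini-Hochberg adjusted p under 0.05). Over all 12431 genes tested, 0.0161% were called higher and 0.00804% lower in STZ hearts. Adjusted p-values of the members ran from 0.922 to 0.980. None had an unadjusted p under 0.05, which 1.17% of all genes had in the higher and 1.42% in the lower direction. In no member did the groups separate, while 4.92% of all genes had every STZ value above every control value and 3.62% had every one below. When voom was run on the recovered reads, 0 members passed and 1, Acaa1a, had an unadjusted p under 0.05, as did 250 of 12431 genes.

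What most members shared was a low value in 1 library. Control 2 was the lowest of the 6 libraries for 29 of 35 tested members, and for 41.7% of all genes tested. These are counts on FPKM, in which the authors divided control 2 by a scale 1.21 times its reads and the other 5 libraries by 0.985 to 1.03 times theirs. On reads over the recovered totals, control 2 was the lowest for 22 of 35 members and for 22.9% of all genes. The 7 that no longer had it lowest were Vldlr, Slc27a1, Slc22a5, Slc25a20, Acad9, Echs1 and Hadh. On FPKM, in the 29 members, control 2 held between 39.6% and 83.0% of the mean of controls 1 and 3, with a median of 60.9%. The summed level of all 37 members was 7932, 4183 and 6385 FPKM in controls 1 to 3 and 6607, 6937 and 6924 FPKM in STZ 1 to 3. Control 2 is the low one, control 1 is the highest, and the STZ libraries lie between controls 1 and 3. The members' sum in control 2 was 58.4% of the mean of controls 1 and 3, and the cardiomyocyte markers' sum was 58.8%, or 70.7% and 71.1% on the recovered totals. Such sums rest mostly on the most abundant genes. The median deviation of a gene from its own 6-library mean on log2(FPKM + 1) differed more between the lists. In control 2 it was -0.47 for the members and -0.85 for the cardiomyocyte markers. Single cardiomyocyte markers ranged from 23.6% for Pln to 112.1% for Cox6a2. The endothelial markers' sum was 66.6%, with Cdh5 at 43.7% and Kdr at 34.9%, while the other 6 endothelial markers were at 77.4% to 107%. In RNA of a mixed tissue sample, fewer cells of a type and less RNA per cell cannot be told apart.

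**Figure D1:**
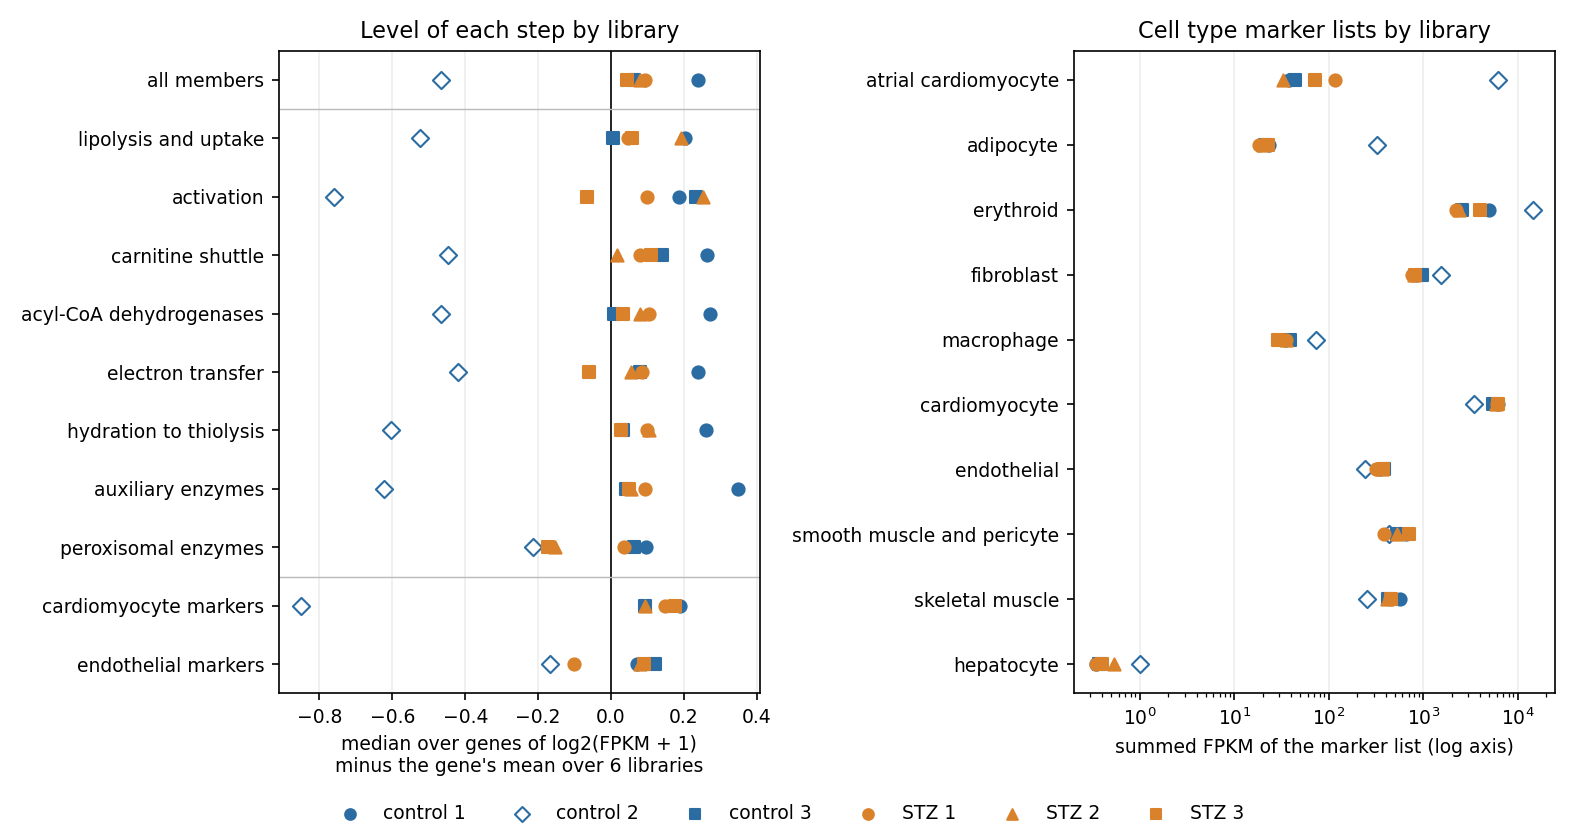
The left panel gives, for each library, the median over the tested genes of a step of the gene's deviation from its own 6-library mean on log2(FPKM + 1), with cardiomyocyte and endothelial markers below. The right panel gives the summed FPKM of each marker list on a log axis. Each point is 1 library. In the left panel control 2 is the lowest in every row, at -0.47 for all members and -0.85 for cardiomyocyte markers. In the right panel it is far above the others for atrial and adipocyte markers and below them for cardiomyocyte markers.

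With all 6 libraries, 29 of 35 members had a positive log2 fold change, STZ over control, as did 57.7% of all genes, and the members' median was 0.12 against 0.03 for all genes. Without control 2 only 7 of 35 members were positive, beside 49.5% of all genes, and the median was -0.08 against -0.0014. With the cardiomyocyte marker level as a covariate the median was -0.08, and with weights for each library it was -0.05. That marker level was -0.85 in control 2 and between 0.093 and 0.19 in every other library. The covariate thus mainly set control 2 apart, so its fit is not a check separate from leaving control 2 out. Without control 2 the STZ mean of a member was, at the median, 94.5% of the mean of controls 1 and 3. For 33 of 35 members it lay between 88.7%, for Decr1, and 111%, for Slc27a4. The exceptions were Acaa1a at 74.0% and Acss1 at 209%. All 3 STZ values lay below both remaining controls in 5 of 35 members, where 8.52% of all genes did so, and above both in 1, where 9.19% of all genes did so. The 5 were Acsl1, Crat, Acads, Echs1 and Acaa1a, and the 1 was Slc27a4.

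The members varied little among the STZ libraries. Their median coefficient of variation was 4.63% over the STZ libraries and 31.2% over the control libraries. Over the 5 libraries other than control 2, the highest value of a member was, at the median, 1.23 times the lowest, and it was under 2 times the lowest in 34 of 35 members, the exception being Acss1. The median half-width of a member's 95% interval was 0.57 on the log2 scale with all libraries and 0.25 without control 2. Control 1 was the highest of all 6 libraries in 22 of 35 members. This count is on FPKM, in which control 1 had the smallest scale over its reads, 0.985 against 1.01 to 1.21 in the others. Neither this count nor the coefficients of variation were computed over all genes.

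**Figure D2:**
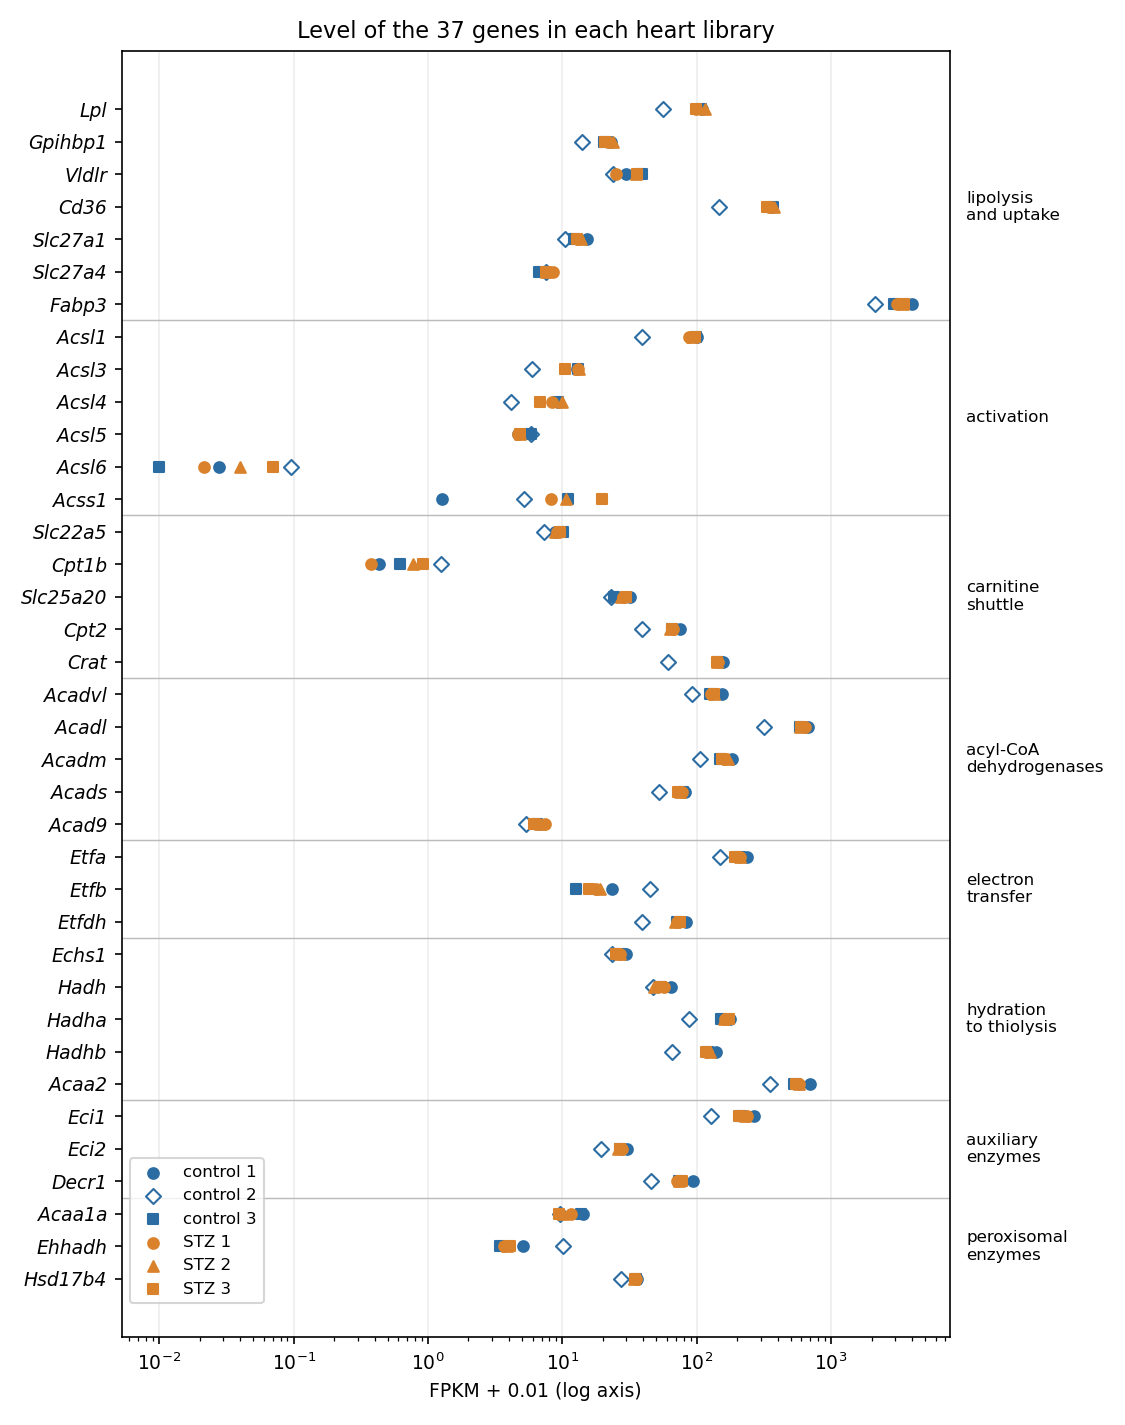
FPKM of each of the 37 members in each library, with 0.01 added so that a value of 0 can be drawn on the log axis, ordered by step. Each point is 1 library, blue for control and orange for STZ, with control 2 as an open diamond. Levels run from 0 for Acsl6 in control 3 to 3990.2 FPKM for Fabp3 in control 1, and the open diamond lies to the left in most rows but to the right for Etfb, Ehhadh, Cpt1b and Acsl6.

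The members that release and take up fatty acids included the most abundant transcript of the set. Fabp3, the fatty acid-binding protein of heart and skeletal muscle, was at 3990.2, 2113 and 2951 FPKM in controls 1 to 3 and at 3089.6, 3409 and 3498 FPKM in STZ 1 to 3. The groups overlapped, with both the highest and the lowest value in control libraries. Fabp3 alone made up 46.2% to 50.5% of the summed level of all members in each library. Its log2 fold change was 0.19 (SE 0.304; limma, adjusted p = 0.926), and it was -0.04 without control 2. Its processed pseudogene Fabp3-ps1 was listed at 15.6 to 25.9 FPKM, and how the authors' counting divided reads between such copies is not given in the sources used here. In addition, 19.6% of Fabp3 exon bases lie opposite exons of another gene, mainly Zcchc17, at 4.43 to 5.94 FPKM, and the strand setting is not given either.

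Cd36, the fatty acid translocase of the cell membrane (ENSMUSG00000002944, GRCm38 chromosome 5, 17781690 to 17888801, minus strand), had the lowest share of the mean of controls 1 and 3 left in control 2 among the uptake genes on FPKM, at 40.1%. It was at 364, 147 and 369 FPKM in controls and at 345, 377 and 331 FPKM in STZ hearts. Without control 2, Cd36 stayed within 331 to 377 FPKM and the groups overlapped. The log2 fold change was 0.37 with a 95% interval of -0.49 to 1.23, and -0.07 with an interval of -0.31 to 0.18 without control 2 (limma). A Cd36 promoter window is shown because Cd36 is a textbook target of PPAR nuclear receptors. The window covers 250 bases before and 50 after the RefSeq start site, at chr5:17835847-17836146 on GRCm38.p6, minus strand. That start site lies well inside the deposited gene, which on this strand begins at 17888801. The window is therefore not at the start of the deposited gene. Capitals mark the only match, on the opposite strand, to the nuclear receptor half-site AGGTCA.

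Cd36: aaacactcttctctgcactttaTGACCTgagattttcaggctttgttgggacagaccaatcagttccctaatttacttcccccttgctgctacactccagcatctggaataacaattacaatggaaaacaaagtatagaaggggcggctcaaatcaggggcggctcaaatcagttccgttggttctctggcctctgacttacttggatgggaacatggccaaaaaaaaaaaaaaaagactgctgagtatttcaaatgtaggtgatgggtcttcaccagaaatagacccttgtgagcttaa

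Lpl, the lipase that frees fatty acids from lipoprotein triglyceride, was at 109, 55.9 and 107 FPKM in controls and 98.1, 115 and 98.7 FPKM in STZ hearts. Gpihbp1, which anchors that lipase on capillary endothelium, was at 23.2, 13.9 and 20.5 FPKM and at 21.9, 24.0 and 20.8 FPKM. In both genes control 2 was the lowest, at 51.7% of the mean of controls 1 and 3 for Lpl and 63.6% for Gpihbp1, and the other 5 libraries were within 1.17 times of each other. Vldlr, the very low density lipoprotein receptor, was more scattered, at 29.8, 23.6 and 39.3 FPKM in controls and 25.1, 35.5 and 35.7 FPKM in STZ hearts. Its low STZ value overlapped the control range, and its log2 fold change was 0.07 with all libraries and -0.11 without control 2.

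The fatty acid transport proteins Slc27a1 and Slc27a4 couple uptake to activation. Slc27a1 was at 15.2, 10.4 and 12.2 FPKM in controls and 13.1, 13.7 and 12.9 FPKM in STZ hearts. Slc27a4 was the uptake gene for which control 2 was not the lowest, at 7.43, 7.53 and 6.69 FPKM in controls and 8.51, 7.49 and 7.51 FPKM in STZ hearts. The STZ values lay above controls 1 and 3, but 2 of them lay below control 2. Slc27a4 had a log2 fold change of 0.10 (SE 0.101; limma, adjusted p = 0.922) and 0.13 without control 2, with a 95% interval of -0.10 to 0.36. Of the 7 genes of this step only Slc27a4 and Gpihbp1, at 0.03, were positive without control 2.

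Among the genes of activation, Acsl1, the main long-chain acyl-CoA synthetase of heart, was the most abundant. It was at 99.7, 39.2 and 98.5 FPKM in controls and 87.9, 91.4 and 97.8 FPKM in STZ hearts. Control 2 held 39.6% of the mean of the other controls, the lowest share of any member, and all STZ values lay between control 2 and control 3. Acsl1 had a log2 fold change of 0.34 (SE 0.354), which became -0.10 when control 2 was left out (95% interval -0.31 to 0.10). Acsl3, a synthetase of lipid droplets and endoplasmic reticulum, was at 12.7, 5.98 and 12.98 FPKM in controls and 12.99, 13.4 and 10.5 FPKM in STZ hearts. Acsl4, which prefers arachidonate, was at 9.32, 4.14 and 9.23 FPKM and at 8.32, 9.95 and 6.85 FPKM. In Acsl3 and Acsl4 the lowest value was control 2 and the next lowest was STZ 3.

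Acsl5, a synthetase better known from intestine and liver, did not follow this pattern. It was at 4.65, 5.81 and 5.87 FPKM in controls and 4.66, 4.86 and 4.82 FPKM in STZ hearts, with control 1 the lowest of the 6. Its log2 fold change was -0.15 (SE 0.111; limma, adjusted p = 0.922) and -0.11 without control 2. Acsl6, a synthetase of brain, had 0 to 18 reads per library, with the 18 in control 2. At this depth its level could not be compared.

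Acss1, the mitochondrial enzyme that activates acetate (ENSMUSG00000027452, GRCm38 chromosome 2, 150618105 to 150668500, minus strand), was the most variable member. It was at 1.27, 5.16 and 11.1 FPKM in controls and 8.28, 10.6 and 19.8 FPKM in STZ hearts, from 88 to 1513 reads. Control 1 was far below and STZ 3 far above the rest, and control 3 lay above 2 STZ values, so the groups overlapped. Leaving out control 2, the highest value was 15.6 times the lowest. The log2 fold change of 1.24 (SE 0.604; limma, adjusted p = 0.922) was the largest of the members, with a 95% interval of -0.19 to 2.68. It was 0.60 without control 1, 1.32 without control 2, with an interval of -0.37 to 3.01, and 1.81 without control 3. The direction was positive in each, and the size moved with the library left out. Whether same-numbered libraries were paired cannot be decided from these data. Each STZ value of Acss1 lay above that of the same-numbered control. With the replicate number as a block its unadjusted p was 0.00618, where 373 of 12431 genes were under 0.05 (limma). It was 0.0305 with array weights (706 of 12431 genes) and 0.0121 without control 3 (687 of 12273 genes). Adjusted p-values were 0.935, 0.857 and 0.689, so none passed. In the main fit the unadjusted p was 0.0799.

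In the carnitine shuttle, Slc22a5 imports carnitine into the cell. It was at 8.80, 7.23 and 10.2 FPKM in controls and 9.12, 8.74 and 9.58 FPKM in STZ hearts, with a log2 fold change of 0.07 and -0.04 without control 2. Cpt1b, the muscle form of carnitine palmitoyltransferase 1 that makes acylcarnitine at the outer mitochondrial membrane, was low in all libraries. It was at 0.423, 1.25 and 0.609 FPKM in controls and 0.367, 0.759 and 0.911 FPKM in STZ hearts, from 22 to 90 reads. Control 2 was the highest of the 6, and STZ 1 and control 1 were the lowest. In addition, 81.4% of Cpt1b exon bases are shared with the same-strand gene Gm44502, listed at 0 in all libraries, and how reads of the pair were assigned is not stated.

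Cpt1a, the liver form, is not a member but carries out the same step. It was at 36.2, 27.4 and 41.4 FPKM in controls and 43.6, 40.7 and 48.6 FPKM in STZ hearts. Control 3 lay above STZ 2, and the log2 fold change was 0.35 (SE 0.172; limma, adjusted p = 0.922), or 0.19 without control 2. As deposited, Cpt1b made up 0.835% to 4.36% of the summed FPKM of Cpt1a and Cpt1b in each library.

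Slc25a20, the carnitine-acylcarnitine translocase of the inner membrane, was at 32.1, 23.0 and 24.2 FPKM in controls and 28.3, 27.3 and 29.7 FPKM in STZ hearts. Cpt2, which returns the acyl group to coenzyme A in the matrix, was at 75.5, 39.2 and 65.8 FPKM and at 66.1, 62.7 and 65.0 FPKM. The STZ values of both lay inside the control range. Crat, carnitine acetyltransferase, was at 156, 60.8 and 145 FPKM in controls and 143, 142 and 142 FPKM in STZ hearts. The STZ coefficient of variation of Crat was 0.680% and its control one 43.1%, with control 2 at 40.5% of the other controls. Its log2 fold change was 0.35 over the 6 libraries and -0.08 over the 5 other than control 2 (95% interval -0.28 to 0.12).

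The acyl-CoA dehydrogenases carry out the opening oxidation of each turn and differ in the chain length they accept. Acadl, the long-chain enzyme and a main one in mouse tissues, was at 674, 315 and 589 FPKM in controls and 635, 586 and 602 FPKM in STZ hearts. Acadvl, the very-long-chain enzyme, was at 153, 91.7 and 126 FPKM and at 127, 134 and 135 FPKM. In both, control 2 had the lowest and control 1 the highest value. Of the Acadvl exon bases, 42.9% lie opposite exons of Dvl2, which was at 2.71 to 3.46 FPKM. Acads, the short-chain enzyme, was at 82.1, 52.2 and 79.1 FPKM in controls and 77.9, 74.9 and 72.9 FPKM in STZ hearts, so that all STZ values fell between control 2 and control 3. Acad9, which also serves the assembly of respiratory complex I, was at 5.37 to 6.72 FPKM in controls and 6.19 to 7.39 FPKM in STZ hearts.

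Acadm, the medium-chain enzyme (ENSMUSG00000062908, GRCm38 chromosome 3, 153922357 to 153944632, minus strand), was at 183, 105 and 149 FPKM in controls and 159.7, 171 and 155 FPKM in STZ hearts. The STZ values lay between controls 1 and 3, and the log2 fold change was 0.18 (SE 0.215; limma, adjusted p = 0.922), or -0.03 without control 2. Its promoter window is shown because Acadm, too, is a textbook target of nuclear receptors. It spans chr3:153944594-153944893 on GRCm38.p6, minus strand, and capitals mark the half-site match, on the opposite strand, at the far end from the gene.

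Acadm: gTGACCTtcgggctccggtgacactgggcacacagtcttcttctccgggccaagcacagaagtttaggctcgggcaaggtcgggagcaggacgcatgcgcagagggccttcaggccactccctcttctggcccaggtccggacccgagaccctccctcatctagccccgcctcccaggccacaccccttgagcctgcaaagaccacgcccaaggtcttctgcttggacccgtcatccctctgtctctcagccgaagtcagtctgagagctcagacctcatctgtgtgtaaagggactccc

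The other acyl-CoA dehydrogenases had, like Acadm, all their STZ values within the range of the control libraries, except for Acad9, in which STZ 1 and STZ 2 lay above every control. The 5 genes had log2 fold changes of 0.11 to 0.28 with all libraries, and 4 of 5 were negative without control 2. Acadvl made up 14.4% ± 1.48 of the summed FPKM of the 5 genes in controls and 13.4% ± 0.706 in STZ hearts (SD, n = 3 each), a difference of -1.004 percentage points that was -0.17 without control 2.

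Electrons from these enzymes pass to the electron transfer flavoprotein, a dimer of Etfa and Etfb products, and on to its oxidoreductase, encoded by Etfdh. Etfa was at 235, 149 and 211 FPKM in controls and 211, 210.4 and 191 FPKM in STZ hearts. Etfb ran the other way in control 2, at 23.4, 44.6 and 12.7 FPKM in controls and 17.9, 19.0 and 15.7 FPKM in STZ hearts. Etfdh was at 83.2, 39.1 and 70.8 FPKM and at 70.7, 68.7 and 75.0 FPKM. So control 2 was the lowest library for Etfa and Etfdh and the highest for Etfb. For Etfb the log2 fold change was -0.42 (SE 0.398; limma, adjusted p = 0.922) and 0.02 without control 2, and for Etfa it was 0.07 and -0.13. Without control 3 the Etfb value was -0.85 (limma, unadjusted p = 0.0210, adjusted p = 0.689), where 687 of 12273 genes were under 0.05. Etfb shares 58.2% of its exon bases with the same-strand gene Gm45233, listed at 0 to 0.0582 FPKM. Etfb, Ehhadh, Cpt1b and Acsl6 were the 4 members highest in control 2, the library with the atrial and adipocyte signal, whose part in these values was not tested.

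The next steps are catalysed by the mitochondrial trifunctional protein for long chains and by separate enzymes for shorter ones. Hadha encodes its alpha subunit, with hydratase and hydroxyacyl-CoA dehydrogenase activity, and Hadhb its beta subunit, the thiolase. Hadha was at 178, 87.5 and 152 FPKM in controls and 161, 160.5 and 174 FPKM in STZ hearts. Hadhb was at 138, 65.1 and 120.4 FPKM and at 119, 126 and 118 FPKM. For both subunits the lowest library was control 2 and the highest control 1. Hadha had a log2 fold change of 0.31 and Hadhb one of 0.23 with all libraries, and these were 0.01 and -0.09 without control 2. Hadha made up 56.5% ± 0.813 of the summed FPKM of the pair in controls and 57.7% ± 1.76 in STZ hearts (SD, n = 3 each), a difference of 1.23 percentage points that was 1.67 without control 2.

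Hadha and Hadhb lie head to head on chromosome 5, and their promoter windows are shown because the pair shares them. In the deposited annotation Hadha (ENSMUSG00000025745, minus strand) ends at 30155162 and Hadhb (ENSMUSG00000059447, plus strand) begins at 30155248 on GRCm38. The RefSeq start sites are 273 bases apart, the RefSeq one of Hadha lying inside the deposited gene. The 300-base RefSeq windows at chr5:30154931-30155230 for Hadha and chr5:30155003-30155302 for Hadhb therefore share 228 bases, in opposite orientation, with 57.0% G or C and 15 CG dinucleotides. Capitals mark GC boxes, GGGCGG on either strand.

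Hadha: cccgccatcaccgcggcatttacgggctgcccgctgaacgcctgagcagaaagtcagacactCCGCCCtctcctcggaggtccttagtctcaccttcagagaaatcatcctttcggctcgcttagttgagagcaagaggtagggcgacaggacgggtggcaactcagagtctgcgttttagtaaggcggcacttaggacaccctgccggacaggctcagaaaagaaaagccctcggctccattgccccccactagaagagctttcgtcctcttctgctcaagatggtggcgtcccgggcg

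Hadhb: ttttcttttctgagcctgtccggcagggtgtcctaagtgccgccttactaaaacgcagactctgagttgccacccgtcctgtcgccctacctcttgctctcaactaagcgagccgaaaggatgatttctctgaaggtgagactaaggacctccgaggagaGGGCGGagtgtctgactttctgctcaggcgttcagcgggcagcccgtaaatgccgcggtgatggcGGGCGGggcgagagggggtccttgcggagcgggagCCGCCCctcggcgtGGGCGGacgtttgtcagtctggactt

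The Hadha window holds 1 GC box and the Hadhb window 4, and the box of Hadha and the one farthest upstream in Hadhb are the same bases read from opposite strands. RefSeq windows were found for 29 of the 37 members. GGGCGG occurred in 24 of 29 members (82.8%) and in 38.2% of all 27025 genes with a window. CCAAT occurred in 14 of 29 (48.3%), against 41.1% of all genes, and TATAAA in 0 of 29, against 15.7%. The half-site AGGTCA was in 5 of 29 members (17.2%), which were Acadm, Acadvl, Acsl6, Cd36 and Echs1, and in 18.1% of all genes. The longer TCAAGGTCA, which contains that half-site, was in 1 of 29, Acsl6, against 0.466% of all genes, and the repeat AGGTCANAGGTCA in 0 of 29, against 0.0481%. Both strands were searched. The 27025 genes were not restricted to those tested in these hearts, and the shares among tested genes were not computed. The members without a window were Lpl, Gpihbp1, Cpt1b, Crat, Acad9, Acaa2, Decr1 and Hsd17b4.

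Echs1, the short-chain enoyl-CoA hydratase, was at 29.6, 23.5 and 27.1 FPKM in controls and 26.7, 26.8 and 25.2 FPKM in STZ hearts. Hadh, the short-chain hydroxyacyl-CoA dehydrogenase, was at 64.0, 47.1 and 54.1 FPKM and at 57.4, 47.7 and 54.1 FPKM. Control 2 held 83.0% of the mean of controls 1 and 3 for Echs1 and 79.8% for Hadh, against 53.1% for Hadha and 50.3% for Hadhb, all on FPKM. On the recovered totals Echs1 and Hadh in control 2 were at 100.3% and 96.5% of that mean. The Echs1 and Hadh log2 fold changes were -0.02 and -0.05, and -0.11 and -0.15 without control 2. Acaa2, the mitochondrial thiolase for medium and short chains, was the third most abundant member, at 698, 354 and 534 FPKM in controls and 579.5, 579 and 548 FPKM in STZ hearts. The STZ values of Acaa2 lay between controls 1 and 3.

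Unsaturated chains need isomerases and a reductase as well. Eci1, a mitochondrial enoyl-CoA isomerase, was at 265, 128 and 212 FPKM in controls and 236, 228 and 208 FPKM in STZ hearts. Decr1, the mitochondrial dienoyl-CoA reductase, was at 93.1, 45.8 and 74.1 FPKM and at 71.0, 73.9 and 77.7 FPKM. Eci2, an isomerase of peroxisomes and mitochondria, was lower on FPKM, at 19.5 to 30.3 FPKM in controls and 25.9 to 27.8 FPKM in STZ hearts. Part of that gap is length, as the deposited lengths are 5540 bases for Eci2 and 1091 for Eci1. Reads per library were 2312 to 2825 for Eci2 and 2990 to 4860 for Eci1. In all 3 genes the lowest and the highest value were controls 2 and 1. Without control 2 their log2 fold changes were -0.08, -0.16 and -0.08 for Eci1, Decr1 and Eci2, with intervals that held 0.

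The summed level of the 3 peroxisomal members in control 2 was 87.6% of the mean of controls 1 and 3, the highest share of the 8 steps. Only Ehhadh exceeded that mean in control 2, while Hsd17b4 was at 77.1% of it and Acaa1a at 68.6%. Hsd17b4, the D-bifunctional protein of peroxisomes, was at 35.8, 27.3 and 35.1 FPKM in controls and 35.5, 33.8 and 34.6 FPKM in STZ hearts. Ehhadh, the L-bifunctional protein, was at 5.08, 10.1 and 3.41 FPKM and at 3.70, 3.83 and 4.05 FPKM. Control 2 was the lowest library for Hsd17b4 and the highest for Ehhadh, at 238% of the mean of the other controls. For Ehhadh the log2 fold change was -0.46 (SE 0.311; limma, adjusted p = 0.922) and -0.09 without control 2. Without control 3 it was -0.76 (limma, unadjusted p = 0.0246, adjusted p = 0.689), where 687 of 12273 genes were under 0.05.

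Acaa1a, a peroxisomal thiolase (ENSMUSG00000036138, GRCm38 chromosome 9, 119339676 to 119350299, plus strand), was the 1 member whose interval left out 0 once control 2 was set aside. It was at 14.2, 9.62 and 13.8 FPKM in controls and 11.6, 10.1 and 9.43 FPKM in STZ hearts, from 747 to 1069 reads. All STZ values lay below controls 1 and 3, and 2 of the 3 lay above control 2. The log2 fold change was -0.24 (SE 0.167; limma, adjusted p = 0.922) with all libraries. Without control 2 it was -0.41 with a 95% interval of -0.66 to -0.16, at an unadjusted p of 0.00697 and an adjusted p of 0.971, so it did not pass the threshold. The direction was negative in both. An unadjusted p under 0.05 was found without control 2 in 1 of 35 members and in 471 of 12224 genes. With all libraries, the unadjusted limma p of Acaa1a was 0.0431 on scaling to recovered reads and 0.0345 with voom. It was 0.00491 with array weights and 0.00792 with the cardiomyocyte covariate. None passed, the lowest adjusted p of Acaa1a being 0.570, with array weights. Its near copy Acaa1b was at 0.0873 to 2.10 FPKM, the highest in control 2, and the division of reads between the pair is uncertain.

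**Figure D3:**
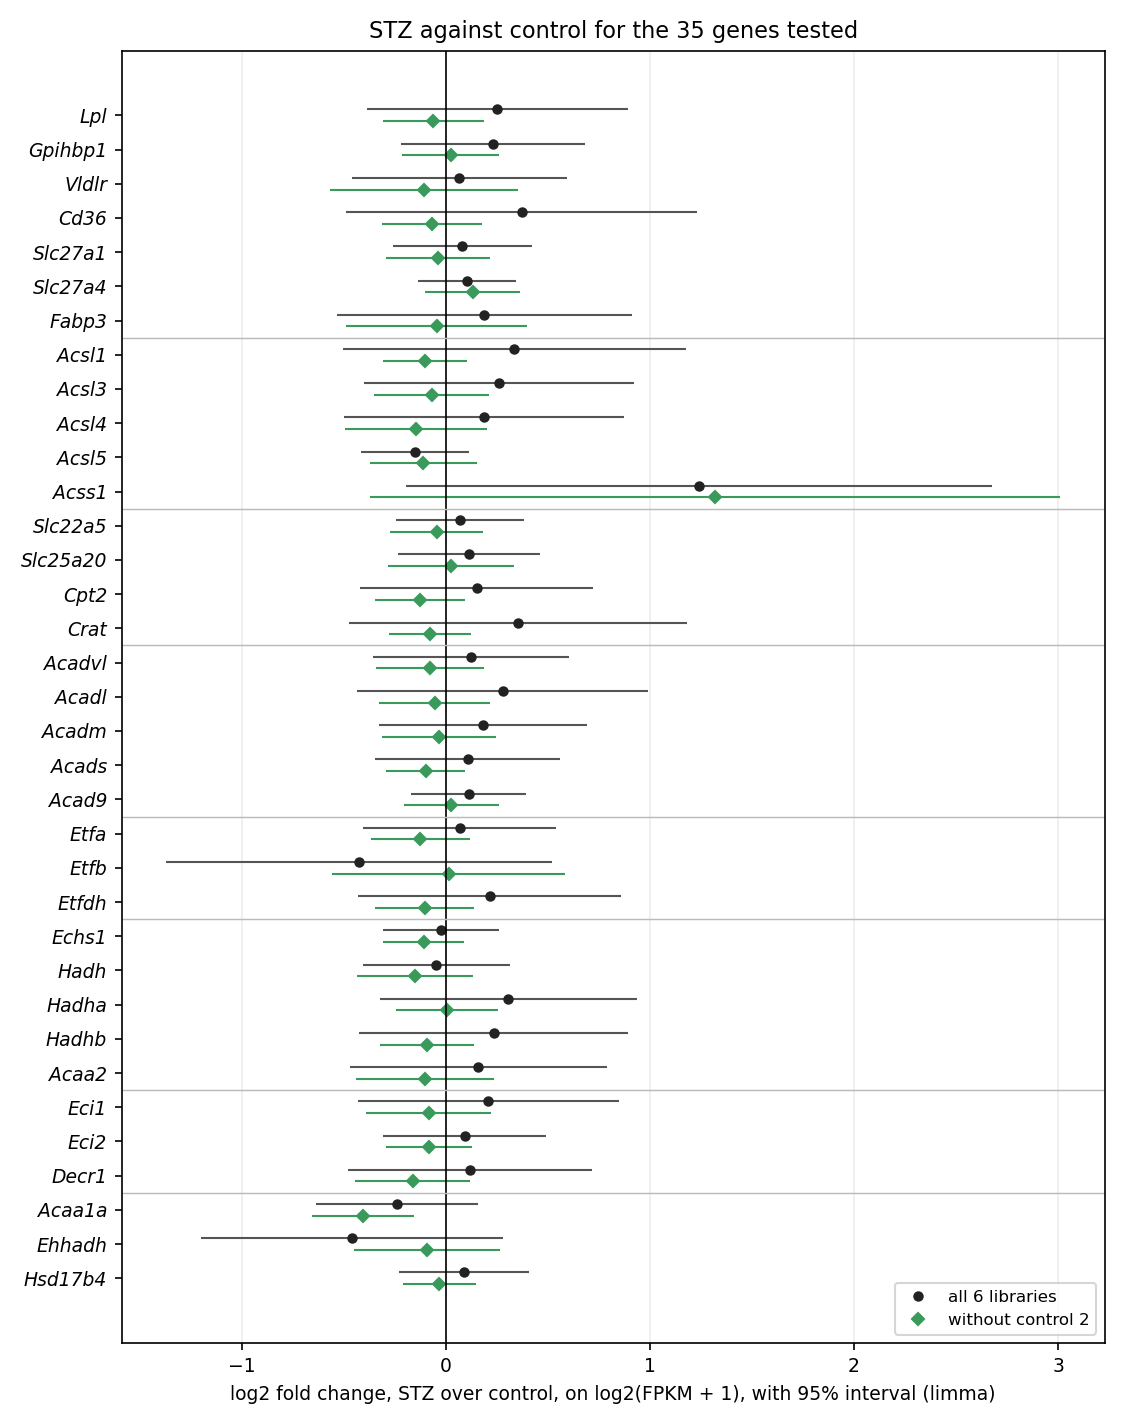
Log2 fold change, STZ over control, of the 35 tested members on log2(FPKM + 1), with 95% intervals from limma, for all 6 libraries (black circles) and without control 2 (green diamonds). Grey lines separate the steps. With all libraries every interval holds 0 and most points lie to the right of it. Without control 2 most points lie slightly to the left, the intervals are mostly narrower, and the interval of Acaa1a leaves out 0.

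Shares of isoforms and subunits within a library do not move with the scale of that library, so 8 of them were compared, with sizes that rest on the deposited gene lengths. None separated the groups (exact two-sided permutation test, p of 0.4 to 0.9, adjusted p = 0.9 for each of the 8), and 3 against 3 libraries cannot reach a p below 0.1. Acsl1 made up 75.9% ± 4.26 of the 5 Acsl genes in controls and 78.4% ± 2.72 in STZ hearts, and that difference of 2.46 percentage points was 0.022 without control 2. Slc27a1 made up 63.2% ± 4.76 and 62.8% ± 2.03 of its sum with Slc27a4. Eci1 made up 88.4% ± 1.50 and 89.3% ± 0.643 of its sum with Eci2 (all SD, n = 3 each). In these 3 shares the lowest library was control 2. It also had the lowest Etfa share, at 76.9% of the sum of Etfa and Etfb against 91.0% to 94.3% in the other 5, and the highest Cpt1b share, at 4.36%. Fabp3 made up 92.5% of the sum of Fabp3, Fabp4 and Fabp5 in control 2 and 96.7% to 97.3% in the other 5.

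**Figure D4:**
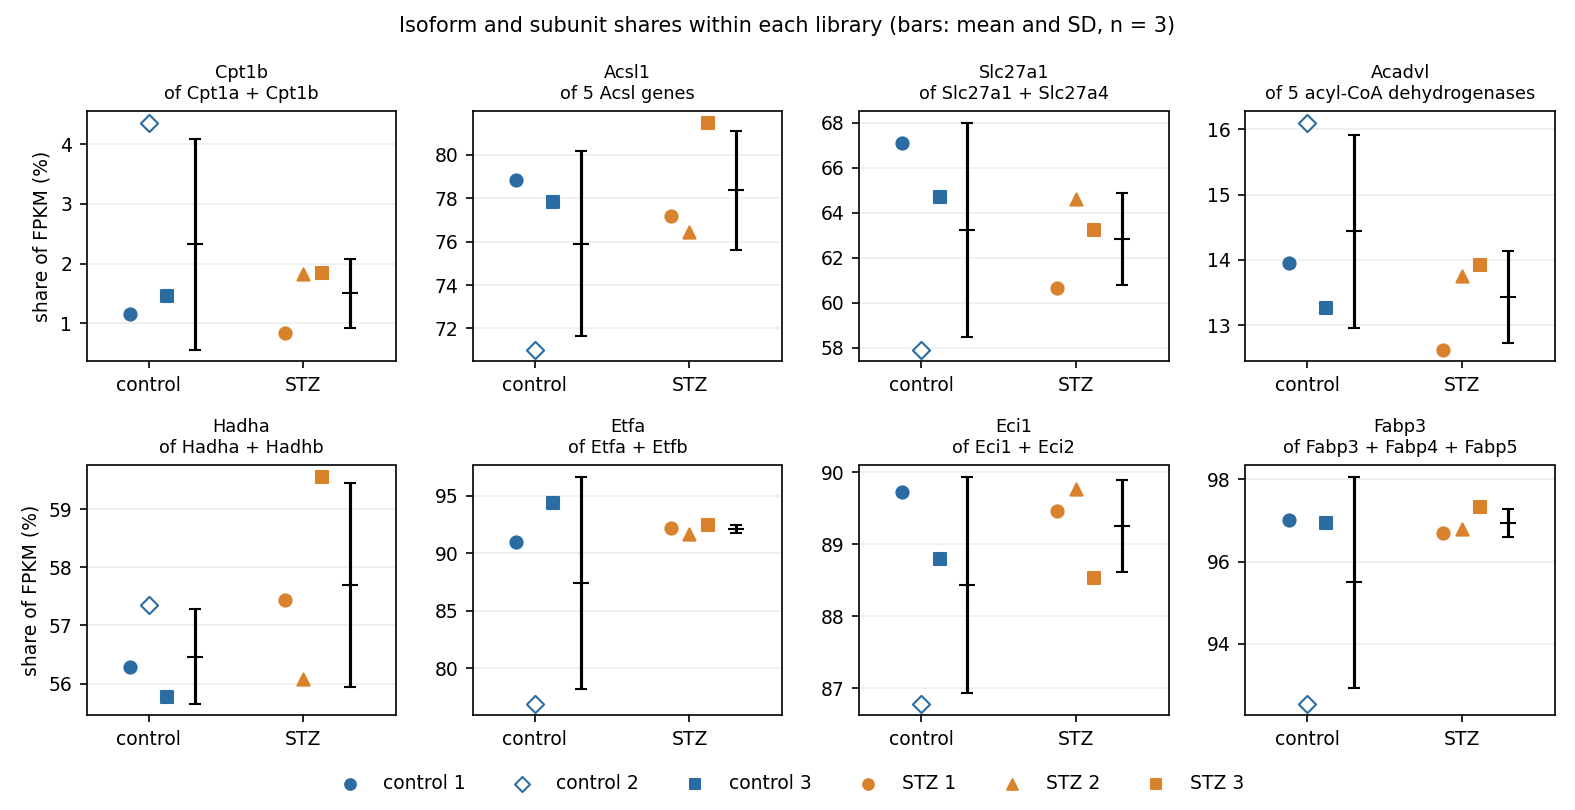
Each panel gives 1 share of summed FPKM, in percent, in the 6 libraries, with bars for the mean and SD of each group (n = 3), on axes that do not start at 0. The open diamond, control 2, is the lowest or highest of the controls in every panel, and in no panel do the groups separate. The Etfa share is 76.9% in control 2 and 91.0% to 94.3% in the other 5 libraries.

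The other genes of the pathway gave no call either. Of 26 further mitochondrial and uptake genes, 23 were tested, with 0 higher and 0 lower past the threshold, 14 positive and a median log2 fold change of 0.04, or 14 positive and 0.0063 without control 2. Of 18 further peroxisomal genes, 14 were tested, with 0 called, 8 positive and a median of 0.01, which became 6 positive and -0.03 without control 2. Of 14 regulators, among them Ppara, Esrra and Ppargc1a, which switch on many of the members, 13 were tested, with 0 called, 9 positive and a median of 0.13. Without control 2 the regulators' direction turned, with 6 of 13 positive and a median of -0.03. Voom called 0 of these genes too. On FPKM control 2 was the lowest library for 9 of 23, 6 of 14 and 8 of 13 of them, and for 29 of 35 members.

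With all 6 libraries, Acad12, an acyl-CoA dehydrogenase family member, was the only one of these other genes with an unadjusted p under 0.05. It was at 1.42, 1.48 and 1.56 FPKM in controls and 3.15, 2.30 and 2.48 FPKM in STZ hearts, so the groups did not overlap. Acacb, Amacr and Ppargc1b likewise had every STZ value above every control value, as 4.92% of all genes did. The log2 fold change of Acad12 was 0.54 (SE 0.125; limma, unadjusted p = 0.00357, adjusted p = 0.922), and 0.54 without control 2. Without control 2, Acacb, Lipe, Angptl4 and Acot8 also had an unadjusted p under 0.05, with log2 fold changes of 0.21, 0.31, 0.56 and 0.34. None passed the threshold (limma, lowest adjusted p of these other genes 0.971). With Acad12 that made 4 of 23 mitochondrial and uptake genes, 1 of 14 peroxisomal genes and 0 of 13 regulators. Over all genes it was 471 of 12224. Ppara, the nuclear receptor for fatty acids, was at 8.25, 4.17 and 6.98 FPKM in controls and 5.31, 7.83 and 6.46 FPKM in STZ hearts, which overlap. Its log2 fold change was 0.04 and, without control 2, -0.20. Ppargc1a, a coactivator of mitochondrial genes, was at 15.8, 7.65 and 22.5 FPKM and at 18.1, 22.8 and 17.8 FPKM. For both, as for most members, the lowest library was control 2.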

How the data were processed

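RNA from 6 heart samples was profiled, 3 per group, with groups taken from the treatment labels and replicate numbers from the sample titles. Per the labels' protocols, total RNA was column-purified and the SMARTER mRNA-seq kit served for library construction. Per the submitters' processing notes the build was GRCm38 (mm10). The sources used here give no aligner, counter or strand setting. The authors deposited FPKM values in 1 table. No header names the unit, which was read from the table's abbreviation and its values. Value times gene length was a whole number of steps within 0.01 for 100% of values above 0, which gave the reads per library. The authors' scale was 0.985 to 1.03 times those reads, and 1.21 times in control 2. Chi-square per degree of freedom between libraries was at least 13.3 and, for pairs with control 2, at least 177, so no pair agreed within sampling noise.

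Genes had to reach 1 FPKM in 3 or more libraries, which left 12431. Their log2(FPKM + 1) values were fitted with limma 3.58.1 (R 4.3.3, with a mean-variance trend), with two-sided p-values Benjamini-Hochberg adjusted over all of them. Fold changes on that scale understate those of low genes. Shares had an exact two-sided permutation test over 20 assignments. The fit was tested on simulated data. Alternatives covered the pseudocount, filter, scaling, voom, library weights, a cardiomyocyte covariate, a replicate block and each library left out. All members are named whatever their values, and other pathway genes if their unadjusted p was under 0.05. Cpt1a, Ppara and Ppargc1a were added after their values were seen. Members and lists were chosen with earlier results of these data known. Promoter windows are RefSeq's on GRCm38.p6, and exon overlaps are from GENCODE M21.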

Additional observations from a re-analysis of the deposited data

How the results depend on the processing

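With the pseudocount, the filters, quantile scaling and scaling to recovered reads, 29 members stayed positive, no member passed the threshold and the members' median lay between 0.057 and 0.13. Voom called 1 gene over the whole table in place of 3, and array weights called 8. With array weights the members' median was -0.046 and 9 members were positive, and with the cardiomyocyte covariate -0.077 and 6. Leaving out each library in turn gave members' medians of -0.077 (without control 2) to 0.34 (without control 1), 7 to 31 positive members, 2 to 5 genes called over the table and 0 members called in every fit. The cause of these shifts was not tested. With voom the log2 fold change changed sign for Vldlr (-0.0055), Etfa (-0.0057). With array weights the log2 fold change changed sign for Slc27a1 (-0.045), Fabp3 (-0.052), Acsl1 (-0.042), Acsl4 (-0.030), Slc22a5 (-0.021), Slc25a20 (-0.028), Cpt2 (-0.12), Crat (-0.029), Acadvl (-0.074), Acadl (-0.046), Acadm (-0.016), Acads (-0.079), Etfa (-0.11), Etfdh (-0.10), Hadhb (-0.052), Acaa2 (-0.11), Eci1 (-0.077), Eci2 (-0.094), Decr1 (-0.16), Hsd17b4 (-0.029). With the covariate the log2 fold change changed sign for Lpl (-0.050), Vldlr (-0.091), Cd36 (-0.052), Slc27a1 (-0.042), Fabp3 (-0.050), Acsl1 (-0.10), Acsl3 (-0.055), Acsl4 (-0.13), Slc22a5 (-0.041), Cpt2 (-0.13), Crat (-0.071), Acadvl (-0.077), Acadl (-0.052), Acadm (-0.033), Acads (-0.10), Etfa (-0.12), Etfdh (-0.10), Hadhb (-0.087), Acaa2 (-0.10), Eci1 (-0.083), Eci2 (-0.083), Decr1 (-0.17), Hsd17b4 (-0.031). Leaving out each library in turn, it ranged for Lpl from -0.060 to 0.42, Vldlr from -0.11 to 0.25, Cd36 from -0.065 to 0.59, Slc27a1 from -0.039 to 0.21, Fabp3 from -0.045 to 0.41, Acsl1 from -0.10 to 0.56, Acsl3 from -0.068 to 0.43, Acsl4 from -0.15 to 0.36, Slc22a5 from -0.045 to 0.18, Cpt2 from -0.12 to 0.34, Crat from -0.077 to 0.59, Acadvl from -0.074 to 0.29, Acadl from -0.053 to 0.49, Acadm from -0.033 to 0.36, Acads from -0.10 to 0.22, Etfa from -0.13 to 0.20, Etfb from -0.85 to 0.016, Etfdh from -0.10 to 0.43, Echs1 from -0.11 to 0.051, Hadh from -0.15 to 0.066, Hadhb from -0.091 to 0.45, Acaa2 from -0.10 to 0.39, Eci1 from -0.084 to 0.44, Eci2 from -0.081 to 0.22, Decr1 from -0.16 to 0.34, Hsd17b4 from -0.031 to 0.16. In percentage points, STZ minus control, the share ranged likewise for Cpt1b from -1.40 to 0.20, Slc27a1 from -3.05 to 1.54, Etfa from -0.53 to 8.16, Eci1 from -0.0029 to 1.47, Fabp3 from -0.044 to 2.20. With the replicate number as a block, 0 genes were called over the table in place of 3 and 0 members, with a members' median of 0.12. Deviations of same-numbered libraries from their group means correlated at 0.021, -0.041 and 0.092. These values cannot decide whether same-numbered libraries were paired, because control 2 enters the mean behind every control deviation. Cpt1b and Acsl6 had few reads, at most 90 and 18 in a library, and the reason was not tested.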
